A study of Homo sapiens with 8 samples.

Results

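The 10 genes described here are commonly used to recognise endothelial cells by their RNA: CDH5, VWF, PECAM1, TEK, TIE1, ENG, CLDN5, ESAM, EGFL7 and ROBO4. They were picked by name from 27946 gene symbols in the deposited expression table, each represented by the transcript with the highest mean level over the 8 libraries. Of the 10 members, 9 passed the filter on low values and were among the 13790 genes tested, and the remaining one, CLDN5, had no read in any library. The cells were EA.hy926, a human line made by fusing umbilical vein endothelial cells with the A549 lung carcinoma line. CRISPR/Cas9 ribonucleoproteins were used to remove one of 2 regions of a super-enhancer, a cluster of enhancers, on the long arm of chromosome 16. The ΔE2 group lacked the enhancer E2, which is active in endothelial cells in reporter vectors, and the ΔSE12313-b group lacked SE12313-b, a neighbour without reporter activity that served as the negative control deletion. Each deletion was represented by 3 clonal lines with 1 library each. The control group consisted of 2 libraries of EA.hy926 cells whose labels say no more than control. The labels name no other allele, drug or time point that distinguished the groups. For its proliferation assay the paper describes the control as cells given guide RNAs and grown alongside the clones. Cas9 exposure or single-cell cloning of the control is not stated there. In comparisons with the control, effects of cloning or of Cas9 can therefore not be told apart from that of a deletion. The labels do not say whether the 2 control libraries came from separate cultures, so the p-values below measure the spread between these libraries, which may be technical for the control.

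Endothelial identity rests on a handful of molecular systems. VE-cadherin (CDH5), PECAM-1, claudin-5 and ESAM hold neighbouring endothelial cells together. TEK (TIE2) and TIE1 are the receptor tyrosine kinases of the angiopoietin pathway, endoglin (ENG) is a co-receptor for BMP9, BMP10 and TGF-β, and ROBO4 is an endothelial roundabout receptor that stabilises vessels. Von Willebrand factor (VWF) is stored in Weibel-Palade bodies and captures platelets, and EGFL7 is a secreted matrix protein whose gene hosts the endothelial microRNA miR-126. Transcription factors of the ETS family, among them ERG and FLI1, are known to maintain many of these genes.

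The read totals that scale the FPKM were worked back from the deposited values and are not reported depths. They were 12067532 to 12696179 reads in the control libraries, 13616316 to 19101295 in ΔE2 and 14814086 to 16085511 in ΔSE12313-b. Levels are given as FPKM, fragments per kilobase of transcript per 1000000 reads, so they can be compared between genes. A change was called when limma gave a Benjamini-Hochberg adjusted p under 0.05 and the difference was at least 2-fold. The median of all tested genes was itself displaced, by 0.14 (log2) in ΔE2 and 0.27 in ΔSE12313-b against the control, and by -0.11 between the deletions. Reads on the transcripts kept for the gene symbols were 7802374 to 8151528 in the control libraries, 9981648 to 13374186 in ΔE2 and 11147141 to 12588452 in ΔSE12313-b. Their share of the read total was higher in every clone than in either control library. The part of this share in the displacement and in the calls was not tested. The removed regions are not rows of a gene table, so the deletions were not checked here. Fewer transcripts per cell and fewer cells carrying them cannot be told apart in bulk RNA.

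In the control cells the members covered a wide range of levels. ENG was the most abundant at 162 ± 1.14 FPKM (SD, n = 2), followed by CDH5 at 103 ± 0.310, EGFL7 at 90.4 ± 0.823, TIE1 at 56.0 ± 1.04 and ESAM at 27.4 ± 1.41. ROBO4 at 12.9 ± 0.148, TEK at 7.12 ± 0.354 and PECAM1 at 5.98 ± 0.0735 were lower, and VWF reached 1.92 ± 0.132. No neighbours in this order overlapped between their control libraries. ENG ranked above 98.4% and CDH5 above 97.6% of the tested genes in control cells, whereas PECAM1 ranked above 49.3% and VWF above 22.7%. The EA.hy926 control thus had several endothelial markers among its most abundant transcripts, while 2 of the defining ones, VWF and CLDN5, were low or without reads. In ΔE2 the ranges of EGFL7 and CDH5, of CDH5 and ESAM, of ROBO4 and TEK, and of TEK and PECAM1 overlapped between clones. Within each ΔE2 clone these neighbours kept their order, except that PECAM1 was above TEK in replicate 2. In ΔSE12313-b the ranges of ENG and EGFL7, TIE1 and ESAM, and TEK and ROBO4 overlapped, and each of these pairs kept its order in every clone. PECAM1 moved from the 8th to the 6th place in the order. The summed level of the members was 466 to 468 FPKM in the control libraries, 511 to 737 across ΔE2 and 503 to 707 across ΔSE12313-b.

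The spread between libraries differed by group. The coefficient of variation of the tested members lay between 0.302% (CDH5) and 6.87% (VWF) in the 2 control libraries, between 10.8% (ENG) and 44.2% (PECAM1) among the 3 ΔE2 clones, and between 6.31% (TIE1) and 53.2% (VWF) among the 3 ΔSE12313-b clones. A single residual spread over all 3 groups was used in the test.

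Among the 9 tested members, 2 rose and 1 fell in ΔE2, and 1 rose and 1 fell in ΔSE12313-b. The genes called higher in ΔE2 were PECAM1 and ESAM, the gene called higher in ΔSE12313-b was PECAM1, and VWF was called lower in both. Over all tested genes, 11.2% were called higher and 8.36% lower in ΔE2, and 14.7% were called higher and 7.83% lower in ΔSE12313-b, and centring each library on the median moved these calls from 1544 higher and 1153 lower to 1170 and 1464 in ΔE2, and from 2032 and 1080 to 1201 and 1570 in ΔSE12313-b. In ΔE2 the called members were 22.2% of the 9 in the higher and 11.1% in the lower direction, and in ΔSE12313-b 11.1% in each, where 1 member alone makes 11.1%. The median log2 fold change of the members was 0.47 in ΔE2 beside 0.14 for all tested genes, and 0.44 in ΔSE12313-b beside 0.27. Without a size limit, 6 members had an adjusted p under 0.05 in ΔE2 and 4 in ΔSE12313-b. Groups without overlap were frequent in these data. In ΔE2, 6 members lay wholly above and 2 wholly below the control libraries, where 44.8% and 28.7% of all tested genes did. In ΔSE12313-b, 5 lay above and 4 below, where 51.6% and 23.8% of all tested genes did. Both comparisons use the same 2 control libraries.

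Among the cell junction proteins, PECAM1 was called higher in both deletions, ESAM was called higher in ΔE2 alone, and CDH5 was not called. PECAM1, an adhesion and signalling molecule of endothelial and blood cells, was measured on a transcript row at chr17:62396777-62407083 on the minus strand (GRCh37, 17q23.3). This row spans 10307 bases of the genome for a transcript of 4450 bases, and it was the single PECAM1 row in the table. The row spans fewer bases than the gene does in RefSeq's GRCh38.p14 annotation, so it may cover only part of PECAM1, and the level and rank given here are those of this row. Its level was 5.93 and 6.03 FPKM in the control libraries, 10.4, 20.9 and 10.2 across ΔE2 and 28.2, 22.8 and 27.1 across ΔSE12313-b. Every clone exceeded both control libraries, and every ΔSE12313-b clone exceeded every ΔE2 clone. The increase was 2.16-fold in ΔE2 (log2 fold change 1.11, SE 0.287, limma adjusted p = 0.0122) and 4.28-fold in ΔSE12313-b (2.10, SE 0.287, adjusted p = 0.000464). In ΔE2 the call rested on replicate 2, the clone at 20.9 FPKM, since the log2 fold change without it was 0.78 and no longer reached 2-fold. Without control replicate 1 or 2 the log2 fold change was 1.10 or 1.13, near the reported value, though the call was lost. A fit with 1 control library is less precise, so such a loss does not show that a call rests on that library's value. Relative to the median of all genes the ΔE2 change was 0.97, and centring each library on that median ended the call, whereas the ΔSE12313-b change relative to that median was 1.83 and remained a call.

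ESAM, an immunoglobulin-like adhesion molecule of endothelial tight junctions, lies at chr11:124623019-124632223 on the minus strand (11q24.2). It was measured at 28.4 and 26.4 FPKM in the control libraries, at 48.5, 78.1 and 51.2 in the ΔE2 clones and at 34.6, 30.4 and 48.9 in the ΔSE12313-b clones. All 6 clones were above the control, and the ΔE2 clones were almost entirely above those of ΔSE12313-b, with the lowest ΔE2 clone just below the highest ΔSE12313-b clone. ESAM rose 2.11-fold in ΔE2 (log2 fold change 1.08, SE 0.246, adjusted p = 0.00702), and its value in ΔSE12313-b was 1.36-fold (0.44, SE 0.246, adjusted p = 0.157), which turned to -0.02 under quantile normalisation. The ΔE2 call was lost without replicate 2, at a log2 fold change of 0.86, without control replicate 2 (adjusted p = 0.0532), and after centring (0.92).

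CDH5 encodes VE-cadherin, the adherens junction protein that defines the endothelial lineage, and lies at chr16:66400510-66438689 on the plus strand (16q21), on the same chromosome arm as the deleted regions. Its control libraries stood at 102 and 103 FPKM. The ΔE2 clones were at 72.5, 141 and 83.8 FPKM and thus fell on both sides of the control. The ΔSE12313-b clones were at 74.8, 64.3 and 92.8 FPKM, each below the control. The fitted changes were -0.11 in ΔE2 (SE 0.268, 95% interval -0.732 to 0.510, adjusted p = 0.747) and -0.43 in ΔSE12313-b (95% interval -1.05 to 0.196, adjusted p = 0.205), neither of which was called. With ΔE2 replicate 2 and ΔSE12313-b replicate 3 left out, an alternative chosen after seeing the data, these values were -0.40 (adjusted p = 0.0166) and -0.56 (adjusted p = 0.00375), still under 2-fold. Among the 275 tested genes on 16q the median change in ΔSE12313-b differed from that of all genes by -0.31, and its part in the CDH5 value was not tested.

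CLDN5, which encodes the main claudin of endothelial tight junctions, was represented by a transcript at chr22:19510547-19512860 on the minus strand. It had 0 reads in each of the 8 libraries, and 3 reads, the limit that a count of 0 allows, correspond to 0.068 to 0.108 FPKM depending on the depth. This limit covers counting error only. Of 6 other genes within 100000 bases, 5 had reads, among them the adjoining CDC45, which encodes a part of the replicative helicase. Its mean was 2.87 FPKM in the control libraries, 13.9 across ΔE2 and 16.2 across ΔSE12313-b. The locus was therefore represented in the table, and CLDN5 was not detectable at this depth in either the control or the clones.

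Among the receptors, the paired kinases TEK and TIE1 had differences of opposite sign. TEK (chr9:27109139-27230176, plus strand, 9p21.2), the angiopoietin receptor TIE2, measured 6.87 and 7.38 FPKM in the control libraries, 10.8, 19.1 and 12.6 across ΔE2 and 10.4, 8.46 and 14.1 across ΔSE12313-b. All clones were above the control. The ratio was 1.92-fold in ΔE2 (log2 fold change 0.94, SE 0.267, adjusted p = 0.0188), just short of the size needed for a call, which it passed without ΔE2 replicate 1 (1.11) or replicate 3 (1.00), and 1.5-fold in ΔSE12313-b (0.58, SE 0.267, adjusted p = 0.0930). TIE1 (chr1:43766566-43788781, plus strand, 1p34.2), which modulates TIE2, measured 55.3 and 56.8 FPKM in the control libraries, 39.1, 48.5 and 42.6 across ΔE2 and 50.4, 47.2 and 53.5 across ΔSE12313-b. Each clone was below both control libraries. Its differences were small, at -0.37 in ΔE2 (SE 0.101, adjusted p = 0.0149) and -0.16 in ΔSE12313-b (SE 0.101, 95% interval -0.389 to 0.0778, adjusted p = 0.216), and neither reached 2-fold.

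ENG (chr9:130577291-130609446, minus strand, 9q34.11), mutated in hereditary haemorrhagic telangiectasia, was the most abundant member in every group. Its levels were 163 and 162 FPKM in the control libraries, 192, 238 and 211 across ΔE2 and 215, 184 and 274 across ΔSE12313-b. All clones were above the control by a modest margin, 1.31-fold in ΔE2 (log2 fold change 0.39, SE 0.163, adjusted p = 0.0745) and 1.36-fold in ΔSE12313-b (0.45, SE 0.163, adjusted p = 0.0443). Relative to the median of all genes the values were 0.25 and 0.17, and under quantile normalisation they became -0.05 and -0.10. An antisense gene, LOC102723566, overlaps ENG on the opposite strand. It held 44 and 46 reads in the control and 6 to 19 in the clones beside at least 5436 for ENG, and the library kit marks strand, but the strand setting used in counting is not given in the sources used here.

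ROBO4 (chr11:124754114-124767831, minus strand, 11q24.2) was, with PECAM1, one of 2 members whose clones did not overlap between the deletions. It measured 12.8 and 13.0 FPKM in the control libraries, 18.7, 32.9 and 17.6 across ΔE2 and 8.19, 7.69 and 11.8 across ΔSE12313-b. The ΔE2 clones all lay above the control, and the ΔSE12313-b clones all lay below it. Neither change against the control was called, with log2 fold changes of 0.78 in ΔE2 (SE 0.282, adjusted p = 0.0474) and -0.50 in ΔSE12313-b (SE 0.282, adjusted p = 0.159).

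Of the secreted products, VWF fell in both deletions. Its transcript lies at chr12:6058040-6233841 on the minus strand (12p13.31). The level was 2.02 and 1.83 FPKM in the control libraries, 0.447, 0.778 and 0.385 across ΔE2 and 0.368, 0.346 and 0.831 across ΔSE12313-b. In reads these were 225 and 194 in the control and 45 to 117 in the clones, so that VWF was sparsely covered but well above the limit of 3 reads, and no clone reached a control library. A small nucleolar RNA gene within VWF on the same strand, SNORA120, had 1 read in 1 library. The decrease of VWF was 3.29-fold in ΔE2 (log2 fold change -1.72, SE 0.399, adjusted p = 0.00771) and 3.49-fold in ΔSE12313-b (-1.80, SE 0.399, adjusted p = 0.00528). The ΔE2 call was lost without control replicate 1 (adjusted p = 0.0551). With a pseudocount of 1 in place of 0.1 the changes shrank below 2-fold, and with a filter on a mean of at least 1 FPKM the gene was no longer tested. The 88 tested genes within 5 Mb of VWF had a median change in ΔE2 that was 0.46 below that of all genes, beside 0.03 above it in ΔSE12313-b, and the part of this regional displacement in the VWF value was not tested.

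EGFL7 (chr9:139560224-139567130, plus strand, 9q34.3) was measured at 91.0 and 89.9 FPKM in the control libraries, at 118, 157 and 106 in the ΔE2 clones and at 173, 139 and 184 in the ΔSE12313-b clones. All clones were above the control, by 1.38-fold in ΔE2 (log2 fold change 0.47, SE 0.178, adjusted p = 0.0552) and by 1.81-fold in ΔSE12313-b (0.86, SE 0.178, adjusted p = 0.00383), again under the 2-fold limit. The table held 5 EGFL7 transcripts, with means over all libraries from 85.5 to 132 FPKM. MIR126, which lies within EGFL7 on the same strand at chr9:139565054-139565138, was covered by 6 to 28 reads and measured 21.6 and 13.8 FPKM in the control libraries, 3.74, 19.5 and 8.74 across ΔE2 and 4.44, 13.7 and 7.49 across ΔSE12313-b. These fragments come from a library of ribosomal RNA-depleted total RNA and do not count the mature microRNA, and the fitted changes of -0.99 and -1.15 had adjusted p values of 0.246 and 0.174. The 2 mature products that the EGFL7 locus encodes are shown with their seed (bases 2 to 8) in capitals, from RefSeq (GRCh38.p14, chr9:136670616-136670636 and chr9:136670653-136670674, plus strand).
hsa-miR-126-5p: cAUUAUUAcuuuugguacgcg
hsa-miR-126-3p: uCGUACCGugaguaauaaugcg

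The direct comparison of the deletions asks whether removing the active and the inactive element left different marker levels. ROBO4 was 2.42-fold higher in ΔE2 than in ΔSE12313-b (log2 fold change 1.28, SE 0.252, 95% interval 0.694 to 1.86, limma adjusted p = 0.00920), with no overlap between the clones. It was the one member called higher, beside 1.60% of all tested genes, and no member was called lower, beside 2.63%. PECAM1 had the opposite sign, at -0.98 (SE 0.257, adjusted p = 0.0265), also without overlap but just under 2-fold. Clones without overlap were found in that comparison for 11.0% of all tested genes with ΔE2 higher and for 29.8% with ΔE2 lower. For the other members the intervals were -0.241 to 0.870 for CDH5, -0.738 to 0.912 for VWF, -0.199 to 0.907 for TEK, -0.427 to -0.00946 for TIE1, -0.392 to 0.282 for ENG, 0.130 to 1.15 for ESAM and -0.758 to -0.0226 for EGFL7, with adjusted p values from 0.0677 to 0.885. The ROBO4 call was lost without ΔE2 replicate 2 (0.99), and PECAM1 became a call without that clone (-1.32) or without ΔSE12313-b replicate 2 (-1.08).

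The genes around ROBO4 had differences of the same sign between the deletions. ESAM and ROBO4 lie 121890 bases apart, and all 8 other tested genes within 100000 bases of the pair had a higher value in ΔE2 than in ΔSE12313-b. Examples are ROBO3, a roundabout receptor of the nervous system, at 0.60 (adjusted p = 0.0158), MSANTD2 at 0.80 (adjusted p = 0.0227) and CCDC15 at 0.94 (adjusted p = 0.00557), named here for their position after their values were seen. Within 5 Mb of ROBO4, 44 of 49 tested genes, or 89.8%, were higher in ΔE2, where 35.7% of all tested genes were, and the median difference of these neighbours exceeded that of all genes by 0.70. ROBO4 itself exceeded that median by 1.39. The ETS factors FLI1 and ETS1 were also among these neighbours. The part of this regional displacement in the ROBO4 and ESAM values was not tested.

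**Figure D1:**
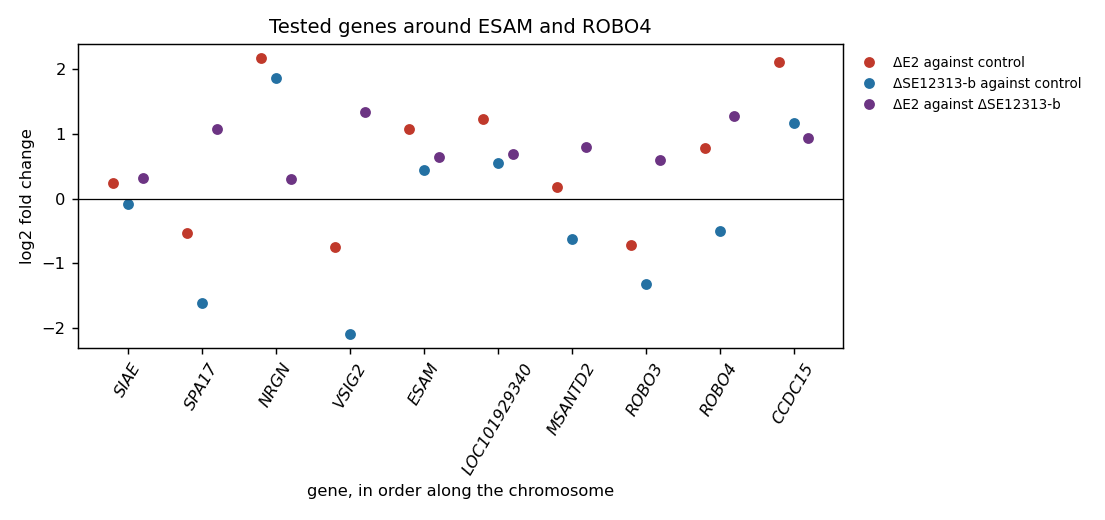
Log2 fold changes of the tested genes in a window of 100000 bases on either side of ESAM and ROBO4, placed in chromosomal order, for each deletion against the control and for the deletions against each other. The purple points (ΔE2 against ΔSE12313-b) are above 0 for all 10 genes, and ROBO4 is at 1.28.

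The members varied together between the clones of a deletion. ΔE2 replicate 2 had the highest level of the 3 ΔE2 clones for 9 of 9 tested members, where it was highest for 36.3% of all tested genes. ΔSE12313-b replicate 3 was the highest of its 3 clones for 8 of 9, PECAM1 being the exception, where it was highest for 36.1% of all tested genes. Both held at once for 8 of 9 members and for 20.0% of all tested genes. The members were measured in the same libraries, so these counts describe 2 clones and not 9 separate observations. In ΔE2 replicate 2 the excess over the mean of the other two clones was 2.02-fold for PECAM1, 1.81-fold for CDH5 and ROBO4, 1.70-fold for VWF, 1.63-fold for TEK and 1.57-fold for ESAM. It was smaller for EGFL7 (1.41-fold), TIE1 (1.19-fold) and ENG (1.18-fold). In ΔSE12313-b replicate 3 it ranged from 1.07-fold for PECAM1 and 1.10-fold for TIE1 to 1.51-fold for ESAM and 2.04-fold for VWF. The median excess of the members was 0.71 (log2) in ΔE2 replicate 2 and 0.47 in ΔSE12313-b replicate 3, beside -0.01 for all tested genes in both. The read total that scales the FPKM was not highest in either clone.

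Other pan-endothelial genes ordered the clones in the same way. Of 22 tested genes on that list, which holds receptors, mucins and signalling proteins of the endothelium and none of the members, ΔE2 replicate 2 was highest for 18 and ΔSE12313-b replicate 3 for 19, with both for 17. CALCRL, the receptor for adrenomedullin, illustrates the spread with 0.145, 2.62 and 0.0840 FPKM in ΔE2 and 1.44, 1.01 and 4.70 in ΔSE12313-b, beside 6.02 and 5.24 in the control. CD34, a sialomucin of endothelial and haematopoietic progenitor cells, measured 5.55, 11.7 and 6.51 FPKM in ΔE2. ACVRL1, the endothelial BMP9 receptor that pairs with endoglin, measured 58.3 FPKM in both control libraries, 27.2, 53.6 and 31.3 in ΔE2 and 30.5, 26.6 and 46.7 in ΔSE12313-b, so that the highest clone of each deletion came closest to the control. Among 18 tested endothelial transcription factors the corresponding counts were 10, 12 and 10. Some other lists shared this order and others did so less. Both tested mural markers, ACTA2 and RGS5, were highest in ΔE2 replicate 2 and in ΔSE12313-b replicate 3, with a median excess of 1.2 (log2) and 0.55, and of 8 tested genes for VWF storage and cleavage 6 were highest in both clones. Of the 3 tested epithelial keratins ΔE2 replicate 2 was highest for 1 and ΔSE12313-b replicate 3 for none. Both clones were highest for 5 of 14 tested junction partners, 4 of 10 endoglin genes, 3 of 6 SLIT and ROBO genes and 1 of 4 angiopoietin genes. In the same order, the median excess was 0.08, 0.10, 0.33 and 0.24 in ΔE2 replicate 2. It was 0.02, -0.04, 0.03 and -0.03 in ΔSE12313-b replicate 3.

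Upstream sequence was examined for letters recognised by ETS factors. RefSeq promoter entries (GRCh38.p14) were matched for 5 of the 10 members, TIE1, TEK, ENG, EGFL7 and ROBO4, in 7 entries, and the 250 bases before each start site were searched for AGGAAG on both strands. The letters occurred in 5 of the 7 windows and in 28.7% of the windows of all 35116 promoter entries. Windows of the same gene are not separate observations, and both EGFL7 windows held a match. An excess of the letters, or their part in the shared variation of the members, was not tested. Letters bound by GATA factors, AGATAA on either strand, occurred in 2 of the 7 windows and in 9.17% of all. The 2 TEK windows, which overlap each other, held no AGGAAG. 4 windows with a match are given 5′ to 3′ along the gene's strand, with the match in capitals, which reads CTTCCT where it lies on the other strand. The EGFL7 window is the downstream one of 2. A match is a run of letters and not evidence of binding.
ROBO4 (chr11:124897866-124898115, minus strand), match beginning 89 bases before the start site: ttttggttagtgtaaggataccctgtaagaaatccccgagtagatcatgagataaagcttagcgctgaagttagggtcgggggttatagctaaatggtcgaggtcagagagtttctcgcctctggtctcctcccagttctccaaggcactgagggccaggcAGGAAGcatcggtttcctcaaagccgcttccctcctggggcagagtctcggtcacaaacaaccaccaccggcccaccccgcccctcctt
TIE1 (chr1:43300732-43300981, plus strand), match beginning 21 bases before the start site: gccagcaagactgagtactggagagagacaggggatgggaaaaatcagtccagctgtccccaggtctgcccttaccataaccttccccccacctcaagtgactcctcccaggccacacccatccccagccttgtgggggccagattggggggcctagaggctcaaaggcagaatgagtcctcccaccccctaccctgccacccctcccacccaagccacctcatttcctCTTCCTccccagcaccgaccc
ENG (chr9:127854659-127854908, minus strand), matches beginning 114 and 68 bases before the start site: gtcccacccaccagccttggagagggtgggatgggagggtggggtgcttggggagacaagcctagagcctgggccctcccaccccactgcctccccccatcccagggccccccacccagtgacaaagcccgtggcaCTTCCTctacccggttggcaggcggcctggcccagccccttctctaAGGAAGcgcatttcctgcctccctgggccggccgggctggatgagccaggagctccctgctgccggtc
EGFL7 (chr9:136662666-136662915, plus strand), matches beginning 81 and 15 bases before the start site: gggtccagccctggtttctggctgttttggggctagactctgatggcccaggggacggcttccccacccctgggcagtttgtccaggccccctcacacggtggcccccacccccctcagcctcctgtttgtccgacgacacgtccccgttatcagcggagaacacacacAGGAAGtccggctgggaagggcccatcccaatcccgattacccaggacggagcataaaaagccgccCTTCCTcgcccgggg

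The ETS factors themselves were measured in the same libraries. ERG, which maintains CDH5 and other junction genes in endothelium, was at 7.51 and 7.85 FPKM in the control libraries, 15.9, 23.2 and 17.1 across ΔE2 and 15.6, 14.4 and 19.9 across ΔSE12313-b. All clones were above the control, and ERG rose in both deletions, by 1.25 (log2, adjusted p = 0.000836) in ΔE2 and by 1.09 (adjusted p = 0.00141) in ΔSE12313-b. FLI1 was at 9.46 and 9.29 FPKM in the control and rose in ΔE2 (1.40, adjusted p = 0.000677), while its value in ΔSE12313-b was 0.56 (adjusted p = 0.0411). Of 18 tested endothelial transcription factors 5 rose in ΔE2 and 6 in ΔSE12313-b, and none was called lower in either. After each library was centred on the median, 3 rose in each deletion, and in ΔSE12313-b FOXF1, named here after its value was seen, was called lower (-1.12, adjusted p = 0.00161). The other named examples were GATA2 (1.02 and 1.94), HHEX (1.13 and 1.58), all called, and LYL1, called in ΔSE12313-b at 1.55 and at 0.91 in ΔE2. The calls lost by centring were ERG (0.80), SOX7 (0.97) and NR2F2 (0.89) in ΔSE12313-b and GATA2 (0.87) and HHEX (0.98) in ΔE2. ERG was also under 2-fold without ΔSE12313-b replicate 3 (0.96), and GATA2 without control replicate 1 (0.92) or ΔE2 replicate 1 (0.99). The list's median was 0.67 in ΔE2 and 0.29 in ΔSE12313-b.

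Among the 22 tested pan-endothelial genes outside the members, 4 rose and 4 fell in each deletion. Centring left 1 of the increases in ΔSE12313-b, and CD34, MMRN2 (0.77) and ECSCR (0.93) were no longer called. The number that fell in ΔE2 was 2 without either control library or ΔE2 replicate 1 or 3, as CALCRL and EMCN were lost. In ΔSE12313-b the number that rose was 2 without either control library or ΔSE12313-b replicate 3, and the number that fell was 2 without control replicate 2. ICAM2, a ligand for leukocyte integrins at endothelial junctions, rose from 37.8 and 34.5 FPKM to 234, 245 and 263 in ΔE2 and to 243, 211 and 256 in ΔSE12313-b, a log2 change of 2.77 (adjusted p = 6.98e-07) in the first and 2.70 (adjusted p = 7.62e-07) in the second. CD34 rose from 0.967 and 0.954 FPKM in both deletions (2.84, adjusted p = 0.000654, and 1.14, adjusted p = 0.0380), though the ΔSE12313-b call was lost after centring (0.85) and without any of 5 libraries, the 2 controls, ΔE2 replicate 3 and ΔSE12313-b replicates 2 and 3 (adjusted p 0.0551 to 0.138). THBD, thrombomodulin, the endothelial anticoagulant cofactor of thrombin, fell from 96.7 and 95.4 FPKM to 21.5 to 26.2 in ΔE2 and to 19.6 to 23.4 in ΔSE12313-b, with changes of -2.03 (adjusted p = 4.75e-06) and -2.13 (adjusted p = 3.22e-06). CALCRL fell in ΔE2 (-3.53, adjusted p = 0.0287) and was at -1.50 (adjusted p = 0.276) in ΔSE12313-b, and its ΔE2 call was lost without either control library or ΔE2 replicate 1 or 3 (adjusted p 0.0832 to 0.126). Endomucin, EMCN, was sparse at 0.333 and 0.371 FPKM in the control, and it was listed at 0 in 2 of 3 ΔE2 clones and at 0.671 to 1.58 in ΔSE12313-b. NOS3, the endothelial nitric oxide synthase, stayed just under the size limit at 0.90 (adjusted p = 5.99e-05) and 0.96 (adjusted p = 3.30e-05), and FLT1 was at 0.68 and 0.84. KDR, the main VEGF receptor of endothelium, was not tested and lay between 0.047 and 0.292 FPKM in all libraries. The list's median was 0.34 in ΔE2 and 0.29 in ΔSE12313-b.

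**Figure D2:**
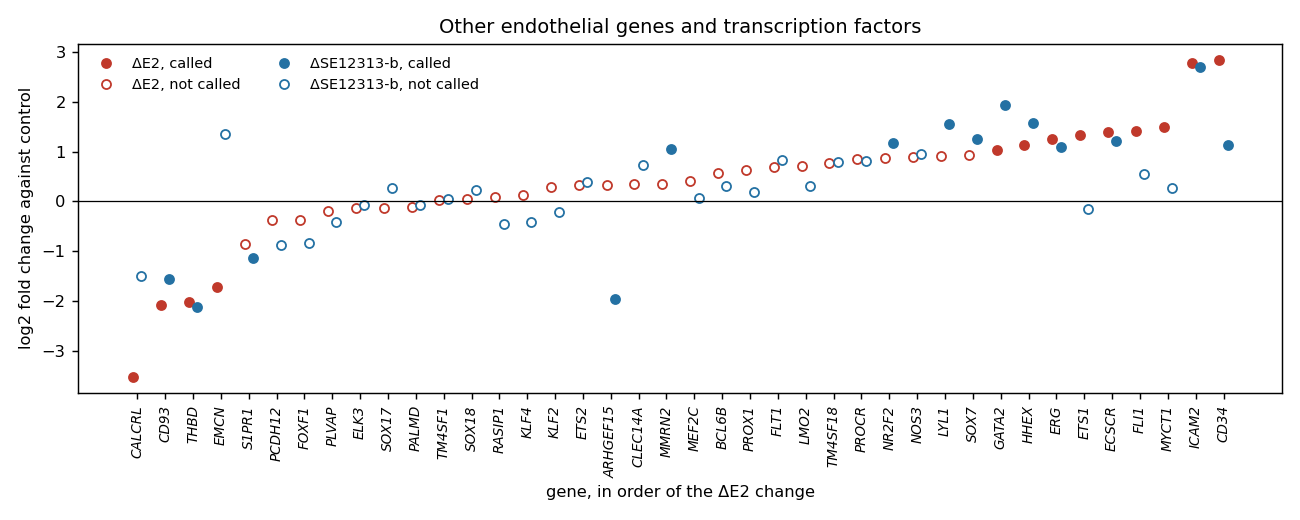
Log2 fold change against the control of the tested pan-endothelial genes and endothelial transcription factors, with ΔE2 in red, ΔSE12313-b in blue and filled points for calls. ICAM2 is near 2.7 and THBD near -2.1 in both deletions. In ΔE2, CD34 lies above ICAM2 at 2.84 and CALCRL below THBD at -3.53.

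The direct partners of the members gave a mixed picture. In the junction list 3 of 14 tested genes rose in each deletion and none fell. Among them were PTPRB, the phosphatase VE-PTP that acts on VE-cadherin and TIE2 (1.75, adjusted p = 1.71e-05, and 1.64, adjusted p = 1.89e-05), and CGN, cingulin (2.48 and 3.13 from 0.112 FPKM in the control). The catenin CTNNB1 at 0.50 and 0.65 and the scaffold TJP1 at 0.59 and 0.47 had adjusted p values between 0.000237 and 0.00529 with changes under 2-fold. In the angiopoietin list PTPRB was the call among 4 tested genes in ΔE2, joined by the ligand ANGPT1 in ΔSE12313-b (1.30, adjusted p = 0.000268), while the ligand ANGPT2 was not tested at 0.024 to 0.309 FPKM. In the endoglin list SMAD9 rose in both deletions (1.28 and 1.11) as the single call among 10 tested genes, with ACVRL1 at -0.70 (adjusted p = 0.0905) and -0.80 (adjusted p = 0.0577) and BMPR2 at 0.60 and 0.53. After centring ACVRL1 was called lower in ΔSE12313-b (-1.08, adjusted p = 0.0196). Of the tested genes for VWF storage and cleavage, HPS6 rose in ΔSE12313-b (1.02). SELP, the P-selectin stored with VWF, was not tested and did not exceed 0.256 FPKM. Of 6 tested genes of SLIT and ROBO signalling none was called in ΔE2, whereas in ΔSE12313-b the ligand SLIT2 (1.10) and the actin regulator ENAH (1.12) rose and ROBO3 fell (-1.32). Several of these calls stood at the size limit. In ΔSE12313-b, centring left SMAD9 at 0.82, HPS6 at 0.73, ENAH at 0.83 and SLIT2 at 0.81, and calls were also lost without control replicate 1 for SMAD9 (0.97), without control replicate 2 or ΔSE12313-b replicate 1 for HPS6 (0.99 and 0.95), and without either control or ΔSE12313-b replicate 2 or 3 for SLIT2 (adjusted p 0.0546 to 0.123). ROBO1 had no more than 0.012 FPKM in any library.

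Markers of other cell types were checked beside these results. Of 11 epithelial markers 3 were tested, the simple keratins KRT7, KRT8 and KRT18, and all 3 rose in both deletions, from a summed list level of 361 to 363 FPKM in the control to 1084 to 1210 in ΔE2 and 811 to 1069 in ΔSE12313-b. KRT8 rose by 1.65 (log2) in each (adjusted p = 6.35e-06 and 5.41e-06), whereas KRT18 in ΔSE12313-b was under 2-fold after centring (0.86) and KRT7 after quantile normalisation (0.79). The epithelial markers CDH1, KRT5, KRT14 and GRHL2 of the same list had no read in any library, and EPCAM did not exceed 0.554 FPKM. Of 7 mural markers 2 were tested, with a summed level of 29.1 to 30.5 FPKM in the control libraries, 18.5 to 39.5 across ΔE2 and 44.6 to 66.5 across ΔSE12313-b. ACTA2 fell in both deletions (-2.80 and -2.53), and RGS5 rose in ΔSE12313-b (1.18), a call lost without either control library (adjusted p = 0.0517 and 0.0526). Of 7 fibroblast markers THY1 was tested, at 0.421 and 0.724 FPKM in the control, 4.96 to 5.84 in ΔE2 and without a read in ΔSE12313-b, and DCN and LUM had no read anywhere. The fibroblast sum was at most 0.768 FPKM in the control libraries, 5.96 across ΔE2 and 0.165 across ΔSE12313-b. Of 8 blood cell markers CD68 was tested and not called, with a list sum of 28.1 to 29.8 FPKM in the control libraries, 24.3 to 24.7 across ΔE2 and 36.0 to 40.5 across ΔSE12313-b, and SPI1, CD3E and PF4 had no read. The part of these markers in the member levels was not tested.

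Likeness over the 8 libraries was described by Pearson's r of log2(FPKM + 0.1) with the other tested genes of a mean of at least 5 FPKM. The genes most like each member were FMNL3 for CDH5 (r = 0.945), ADAMTS7 for VWF (0.990), OSBPL9 for PECAM1 (0.993), MAP3K11 for TEK (0.983), ING4 for TIE1 (0.991), GPRIN1 for ENG (0.995), FADS1 for ESAM (0.989), ST3GAL1 for EGFL7 (0.987) and TCF4 for ROBO4 (0.969). These are the highest of 8254 or 8255 values over 8 points in 3 groups, and the points share libraries and clones. 2 pairs of members were among each other's 100 most similar genes, PECAM1 with EGFL7 and TEK with ESAM. The pattern of ADAMTS7 was like that of VWF, with 25.8 and 24.8 FPKM in the control libraries, 3.97, 7.46 and 3.23 across ΔE2 and 3.74, 3.92 and 10.7 across ΔSE12313-b.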

How the data were processed

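Total RNA of 8 EA.hy926 libraries was depleted of ribosomal RNA and sequenced single-end. Per the submitters' processing notes, Trim Galore 0.4.4, STAR 2.5.4b and featureCounts were used with GRCh37 (hg19). The authors deposited FPKM per RefSeq transcript, and the test named in the study's methods ran on read counts, which were not used here. Every checked FPKM times transcript length was a whole number of reads within 0.1 read (100% of values below a reach of 50.5 reads), and these reads entered a voom alternative.

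The members, companion lists and tests were chosen with earlier results of these data known. For each symbol the transcript with the highest mean was kept. Genes with at least 0.5 FPKM in at least 2 libraries (13790) were fitted with limma 3.58.1 in R 4.3.3 on log2(FPKM + 0.1), a scale that understates changes of low genes, with 3 groups, all 8 libraries, 5 residual degrees of freedom and a variance trend. P-values were two-sided and Benjamini-Hochberg adjusted over all genes. The named genes were the members, fixed partners, the 4 called genes with the largest change in each list, the gene most like each member, and overlapping genes. Some genes that this rule names are not reported here. SNORA120 and other overlapping genes were taken from the table's coordinates. The script was tested on simulated data. Alternatives covered pseudocount, filter, scaling, transcript, threshold, replicate block and left-out libraries.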

Additional observations from a re-analysis of the deposited data

Results flagged for a closer look

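Differences between the deletions that passed the direct limma test of ΔE2 against ΔSE12313-b at an adjusted p under 0.05 were listed for the members and the other named genes, 14 of 42 tested. Groups of 2 or 3 libraries are too small for the test of single outlying samples, which was not run. Among the members these were ROBO4, at a log2 difference of 1.28 (adjusted p = 0.00920), and PECAM1, at -0.98 (adjusted p = 0.0265). The regional displacement within 5 Mb of ROBO4 is given with its values in the report. That window also holds FLI1 and ROBO3, listed below, and the part of the displacement in their values was not tested.

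Among other endothelial genes CD34 differed by 1.70 (adjusted p = 0.0116), FLI1 by 0.85 (adjusted p = 0.0115) and EMCN by -3.06 (adjusted p = 0.00399), the last with no read in 2 of the 3 ΔE2 clones. ANGPT1 differed by -0.93, HPS6 by -0.77, GATA2 by -0.92, LYL1 by -0.65, HHEX by -0.45 and ROBO3 by 0.60, with adjusted p values from 0.000879 to 0.0499. Among markers of other cell types KRT7 differed by 0.54 (adjusted p = 0.0270) and RGS5 by -1.04 (adjusted p = 0.0230). THY1 had no read in any ΔSE12313-b clone and was at least 57.7-fold higher in ΔE2, set against a floor of 3 reads in each library (adjusted p = 5.79e-05). The same floor gives at least 6.12-fold lower levels in ΔSE12313-b than in the control.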

How the results depend on the processing

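Counts of called members were recomputed under 22 planned settings and 1 chosen after seeing the data, and 116 of 138 recomputed counts stayed within 1.5 times the reported one. The number lower in ΔE2 and in ΔSE12313-b became 0 with a pseudocount of 1 and with a mean of at least 1 FPKM, in the second case because VWF, the 1 member called lower, was no longer tested. The number higher in ΔE2 became 0 with each library centred, with quantile normalisation, and with ΔE2 replicate 2 and ΔSE12313-b replicate 3 both left out, and 4 at 1.5-fold and with no limit on size. With no limit the number lower in ΔE2 was 2 and the number higher in ΔSE12313-b 3, and the latter was 2 at 1.5-fold. The number lower in ΔE2 against ΔSE12313-b was 1 (PECAM1) at 1.5-fold, with no limit, and with those 2 clones left out. Leaving out each library in turn gave 0 to 3 members higher and 0 to 1 lower in ΔE2, 1 higher and 1 lower in ΔSE12313-b, and 0 to 1 higher and 0 to 1 lower between the deletions. Where the control kept 1 library, it was assumed to vary like the clones. The cause of these shifts was not tested beyond the settings' construction.

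Of 618 recomputed log2 fold changes of members, 12 reversed their sign, none of them a call. ENG turned to 0.075 with centring, 0.048 with quantile normalisation and 0.020 without those 2 clones in ΔE2 against ΔSE12313-b, where left-out libraries gave -0.19 to 0.10. Quantile normalisation gave ENG -0.055 in ΔE2 and -0.10 in ΔSE12313-b and ESAM -0.016 in ΔSE12313-b. Left-out libraries gave -0.40 to 0.084 for CDH5 in ΔE2 and -0.17 to 0.43 for VWF between the deletions. The replicate number as a replicate block, tried because the labels number each group alike, gave 2 members higher and 1 lower in ΔE2, 1 and 1 in ΔSE12313-b, changed no member's call, and took the pan-endothelial calls lower in ΔE2 and higher in ΔSE12313-b from 4 to 2. Same-numbered libraries deviated with correlations of -0.08 to 0.11, so the numbers do not pair the samples, and ΔE2 replicate 2 was closest to ΔSE12313-b replicate 3 (0.14). Voom on the recovered reads called 1521 genes higher and 1259 lower in ΔE2, and 2038 and 1151 in ΔSE12313-b. Depth limits CLDN5, VWF and MIR126.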
